A study of Mus musculus with 2 samples.

Results

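The genes described here are 48 members of the bone morphogenetic protein (Bmp) and transforming growth factor beta (Tgfb) pathways, out of 43346 genes in the tables. They were taken by name from a list of ligands, receptors, antagonists, Smads and Id genes, and all 48 were found by their GENCODE symbols. The RNA was that of intestines from 14.5-day embryos of the mouse strain B6NCrl, with no genetic change or treatment named in the labels. It was sequenced as total RNA in 2 libraries, replicate 1 and replicate 2, which form the only group, so the data hold no contrast between conditions and no test was run. The labels call each library the intestine of a single pup. Donor record, pup number and dam number are identical for the pair, and the dates of collection are 2 days apart. Effects of the day and of the embryo cannot be told apart.

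Bmp, Tgfb, activin and growth differentiation factor (Gdf) ligands are secreted dimers that assemble type I and type II serine/threonine kinase receptors at the cell surface. The activated type I receptor phosphorylates Smad1, Smad5 and Smad9 for most Bmp ligands, and Smad2 and Smad3 for Tgfb and activin ligands. These join Smad4 and act on genes such as the Id genes, while secreted antagonists hold ligands away from their receptors. In the developing mouse gut, Bmp ligands made in the mesenchyme act on the epithelium and on the forming smooth muscle and enteric nervous system.

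The gene tables held 34504419 estimated counts in replicate 1 and 34042802 in replicate 2, of which 99512 and 93811 fell on the 48 members. Levels are given as TPM, a measure per transcript length that sums to a fixed total over all quantified features, and can be compared between genes. For a typical gene, 3 counts, the least taken as a signal, were worth 0.0588 TPM in replicate 1 and 0.0584 TPM in replicate 2. A chi-square comparing the counts of the libraries over 17781 genes, divided by its degrees of freedom, was 15.3. The libraries thus differed by more than sampling noise and are not copies of a single library. This value covers the set of genes and does not say how many of them differed. The labels give the sex as pooled, but Xist, the RNA of the inactive X chromosome, had 77.2 TPM in replicate 1 and 0.06 TPM in replicate 2. Ddx3y, a Y-linked gene, had 0 TPM in replicate 1 and 28.2 TPM in replicate 2, so neither library showed the mixture of sexes that the labels name. All 8 epithelial markers, including Cdx2 and Epcam, and all 6 smooth muscle markers were detected in both libraries. The 9 pancreas markers summed to 5.14 TPM in replicate 1, where 5 of them, Ptf1a among them, were at 0, and to 1193 TPM in replicate 2. Their part in the differences between libraries described below was not tested. The 6 stomach markers summed to 5.09 and 4.55 TPM and the 5 liver markers to 59.5 and 48.9 TPM. Of the liver markers, Apob had 32.6 and 30.2 TPM and Afp had 24.9 and 17.3 TPM. The others, Alb, Ahsg and Fgb, were under 1 TPM in both libraries.

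Of the 48 members, 45 had at least 1 TPM in both libraries, the level called detected here, beside 61.3% of protein-coding genes and 34.2% of all genes in the tables. Those below it were Bmp8a, Gdf15 and Inhbb. A level of at least 10 TPM in both libraries was reached by 25 members, and the share of all genes at that level was not computed. The median member had a mean of 13.9 TPM, beside 4.90 TPM over all protein-coding genes and 18.4 TPM over the detected ones, and 17 of the 48 lay above that last value. The members summed to 1761 TPM in replicate 1 and 1633 TPM in replicate 2. The Id genes made up the largest share of this, with 796 and 732 TPM, followed by the antagonists with 334 and 302 TPM, most of it Fstl1. The 12 receptors and coreceptors summed to 263 and 252 TPM, the 16 ligands to 168 and 154 TPM, and the 8 Smads to 161 and 154 TPM.

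**Figure D1:**
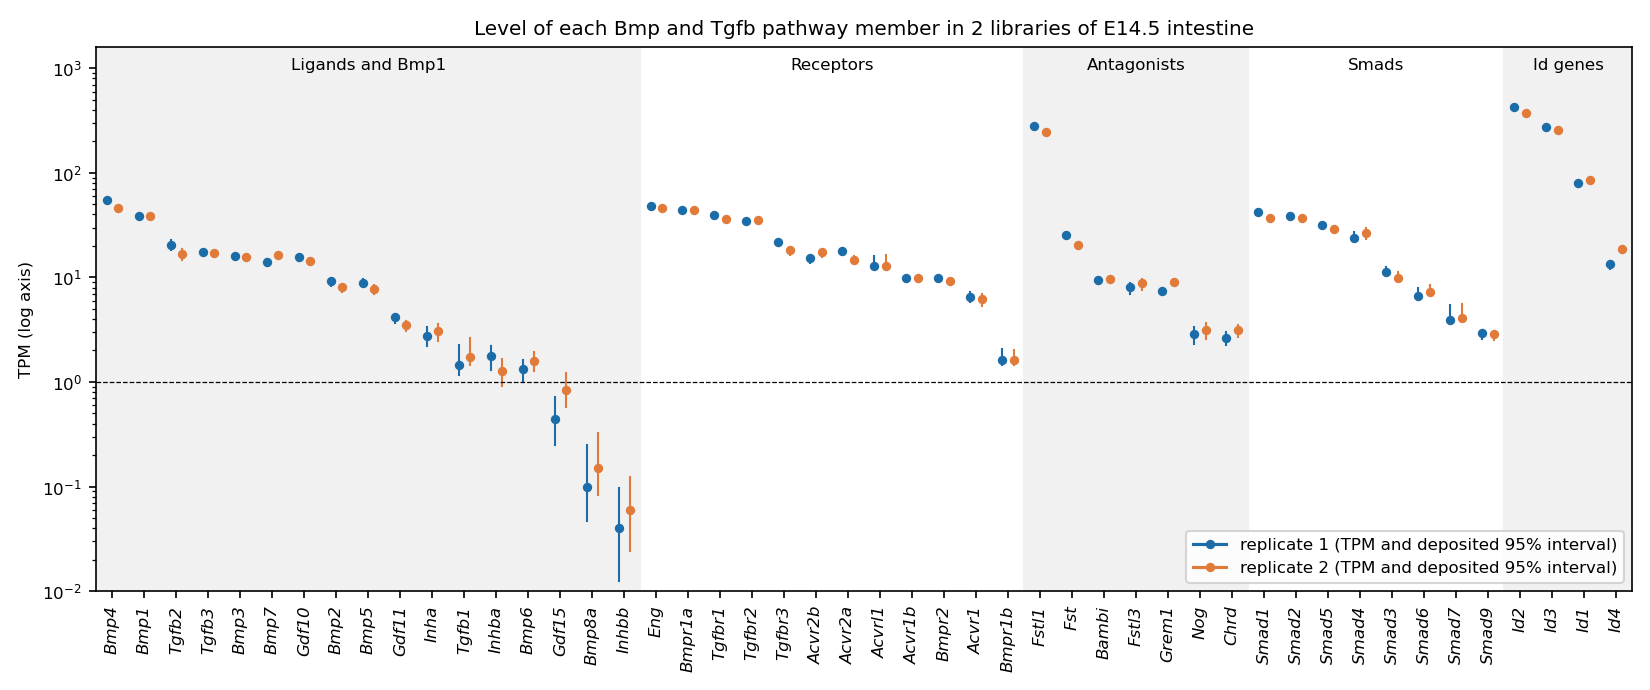
Level of each of the 48 members, with TPM on a log axis, genes ordered by mean within their role, and the deposited 95% interval of each library as a vertical line. The dashed line marks 1 TPM. Id2, Id3 and Fstl1 stand above all other members in both libraries, and Gdf15, Bmp8a and Inhbb lie below 1 TPM.

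Among the ligands, Bmp4 was highest. Bmp4 (chr14:46383520-46390669, minus strand, GRCm38), which gut mesenchyme is known to secrete towards the epithelium, had 54.6 TPM in replicate 1 and 46.0 TPM in replicate 2, a mean of 50.3 ± 6.08 (SD, n = 2). The ligand next in order, Tgfb2, had 20.5 and 16.7 TPM, so the range of Bmp4 did not overlap it. Tgfb3 had 17.3 TPM in both libraries and did not differ from Tgfb2 beyond their spread. Tgfb1, the form known best from immune cells and platelets, was far lower at 1.45 and 1.75 TPM. Thus Tgfb2 and Tgfb3 carried most of the Tgfb ligand transcript of this tissue, and their ranges lay wholly above that of Tgfb1. This order rests on levels per gene, over coding and non-coding transcripts. The coding transcripts of Tgfb2 summed to 9.85 TPM in replicate 1 and 9.05 TPM in replicate 2, below Tgfb3 and above Tgfb1.

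A group of ligands followed at intermediate levels. Bmp3, an atypical family member that opposes other Bmps, had 16.1 TPM in replicate 1 and 15.7 TPM in replicate 2. Bmp7 had 14.2 and 16.3 TPM, and Gdf10, the closest relative of Bmp3, had 15.6 and 14.4 TPM. The ranges of Bmp3 and Bmp7 overlapped, as did those of Bmp7 and Gdf10, so their order is not set by these libraries. Bmp2, the closest relative of Bmp4, had 9.19 and 8.07 TPM, and Bmp5 had 8.83 and 7.70 TPM, again with overlapping ranges. Each of them lay below the whole range of Bmp4.

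The remaining ligands were low. Gdf11, a ligand that signals through activin receptors, had 4.18 TPM in replicate 1 and 3.53 TPM in replicate 2. Bmp6 had 1.32 and 1.60 TPM from 71 and 87 counts. Bmp6 shares 224 exon bases with Txndc5 on the opposite strand, and Txndc5 had 220.5 and 230.5 TPM, so without a stated use of strand the reads of Bmp6 cannot be told apart from those of Txndc5 there. Of the activin and inhibin subunits, Inha (the inhibin alpha chain) had 2.78 and 3.06 TPM, and Inhba (the beta A chain of activin A) had 1.76 and 1.28 TPM. Inhbb, the beta B chain, had 0.04 and 0.06 TPM from 4 and 6 counts, just above the floor. Gdf15, a stress-responsive ligand, had 0.44 and 0.84 TPM from 13 and 27 counts. Bmp8a had 0.10 and 0.15 TPM from 5 and 8.28 estimated counts, and its paralog Bmp8b had 0.50 and 0.28 TPM. How far the pair shares reads was not tested. Bmp1, which carries the family name but is a procollagen protease that also cleaves chordin, had 38.8 TPM in both libraries.

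All 12 receptors and coreceptors were detected. Of the type I receptors, which carry the kinase that phosphorylates Smads, Bmpr1a was highest with 44.4 TPM in replicate 1 and 44.3 TPM in replicate 2. Its relative Bmpr1b had 1.62 TPM in both, so nearly all transcript of this Bmp receptor pair came from Bmpr1a. Tgfbr1, the type I receptor for Tgfb, had 39.9 and 35.8 TPM, below the whole range of Bmpr1a. Acvrl1, the endothelial type I receptor known as ALK1, had 12.9 and 12.7 TPM. Acvr1b, which serves activins, had 9.89 and 9.86 TPM, and Acvr1 had 6.47 and 6.23 TPM. No neighbours among the 6 type I receptors had overlapping ranges.

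Of the type II receptors, which bind ligand and activate the type I chain, Tgfbr2 was highest with 34.6 TPM in replicate 1 and 35.1 TPM in replicate 2. The activin receptors Acvr2b, with 15.4 and 17.5 TPM, and Acvr2a, with 17.7 and 14.6 TPM, did not differ from each other beyond their spread. Acvr2a shares 446 exon bases with Orc4 on the opposite strand, which had 92.8 and 82.5 TPM. Bmpr2, the type II receptor used by Bmps, was lowest of the type II receptors at 9.82 and 9.31 TPM. Both coreceptors lacking a kinase were well expressed. Eng (endoglin), known from endothelium, had 48.4 and 46.5 TPM, the highest level of any receptor or coreceptor, and shares 61 exon bases with Fpgs on the opposite strand. Tgfbr3 (betaglycan) had 21.7 and 18.3 TPM. The 6 endothelial markers summed to 213 TPM in replicate 1 and 209 TPM in replicate 2. In whole tissue, fewer cells of a type and less RNA per cell cannot be told apart.

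Among the antagonists, Fstl1 stood apart. Fstl1 (chr16:37776873-37836514, plus strand, GRCm38), a secreted glycoprotein related to follistatin, had 278 TPM in replicate 1 and 248 TPM in replicate 2, from 18785 and 16572 counts. The other 6 antagonists together summed to 56.1 and 54.2 TPM. Fst (follistatin), which binds activins, had 25.6 and 20.5 TPM, and its relative Fstl3 had 8.03 and 8.75 TPM. Fstl3 shares 1157 exon bases with Prss57 on the opposite strand, which was low at 0.11 and 0.35 TPM. Bambi, a membrane pseudoreceptor without a kinase, had 9.51 and 9.61 TPM. Of the classical Bmp antagonists, Grem1 (gremlin) had 7.48 and 9.00 TPM, a range that overlapped that of Fstl3. Nog (noggin) had 2.86 and 3.17 TPM, and Chrd (chordin) had 2.62 and 3.12 TPM. The ranges of Nog and Chrd overlapped, and both lay below that of Grem1.

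All 8 Smads were detected. Of the Smads activated by Bmp receptors, Smad1 had 42.5 TPM in replicate 1 and 37.1 TPM in replicate 2, Smad5 had 31.4 and 29.3 TPM, and Smad9 had 2.92 and 2.88 TPM. Smad1 and Smad5 thus held nearly all of this class. Of those activated by Tgfb and activin receptors, Smad2 had 38.4 and 37.2 TPM and Smad3 had 11.3 and 9.94 TPM. The ranges of Smad1 and Smad2 overlapped, and Smad1 was the higher of the pair in replicate 1 but not in replicate 2. Smad4, the common partner, had 23.7 and 26.4 TPM. The inhibitory Smads were low, with 6.70 and 7.26 TPM for Smad6 and 3.88 and 4.11 TPM for Smad7.

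Id proteins are helix-loop-helix factors without a DNA-binding region that hold E proteins away from DNA, and Id1, Id2 and Id3 are known targets of Bmp Smads in many mouse cells. Id2 was the highest of all 48 members, with 426 TPM in replicate 1 and 373 TPM in replicate 2, a mean of 399.5 ± 37.6 (SD, n = 2). Id3 had 277 and 255 TPM, overlapping the range of Fstl1. Id1 had 79.7 and 85.0 TPM, and Id4 had 13.5 and 18.8 TPM. The ranges of the 4 Id genes did not overlap one another. Id2 lay at percentile 98.6 of protein-coding genes by mean level, and Id4 at percentile 66.9.

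Between the libraries the members with a mean of at least 5 TPM varied by about as much as all genes at that mean. The rule for a difference asked for a mean of 5 TPM or more, a change of 1 or more in log2(TPM + 1) and deposited 95% intervals with no overlap. None of the 48 members met this rule (35 reached a mean of 5 TPM), beside 0.495% of the 11324 genes at that mean. Among those 35, the largest ratio between libraries was 1.39, for Id4. The median difference in log2(TPM + 1), replicate 1 minus replicate 2, was 0.05 over these members and 0.05 over all genes at that mean, and the median size of the difference was 0.12 against 0.11.

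The intervals alone were separate for 11 of the 35 members (31.4%), beside 25.2% of all genes at that mean. Replicate 1 was higher for 9 of them, namely Bmp4, Tgfbr1, Acvr2a, Tgfbr3, Fst, Fstl1, Smad1, Id2 and Id3, in a direction that 17.9% of all genes showed. Replicate 2 was higher for Grem1 and Id4, a direction that 7.23% of all genes showed. These intervals cover the estimation within a library and not the variation between embryos. They are centred on a posterior mean, so a TPM can lie outside its own interval, as that of Id2 did in replicate 1, with 426 TPM and an interval of 408 to 424 TPM.

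The differences of Fst (0.30 in log2(TPM + 1)), Acvr2a (0.26), Bmp4 (0.24), Tgfbr3 (0.23) and Id2 (0.19) were within the central 95% of genes of a like level. That of Grem1 (-0.24) was too. Of the 45 members with a mean of at least 1 TPM, 1 lay outside it, beside 5.02% of genes. This was Id4, with -0.45 against limits of -0.43 and 0.41 for genes between 5 and 50 TPM. Id4 had 491 counts in replicate 1 and 691 in replicate 2, and its intervals were 12.1 to 14.4 TPM and 17.1 to 19.8 TPM. The epithelial markers, 7 of 8 higher in replicate 2, summed to 1545 TPM in replicate 1 and 1694 TPM in replicate 2. The mesenchymal markers summed to 3677 and 3477 TPM, but only 4 of 7 were higher in replicate 1 and 3 were higher in replicate 2. The smooth muscle markers, 5 of 6 higher in replicate 1, summed to 3404 and 3187 TPM. The part of these markers in the members' differences was not tested.

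The number of separate intervals depended on how replicate 2 was scaled. With edgeR TMM factors or DESeq2 size factors 12 members had separate intervals, of which replicate 1 was higher for 7 and replicate 2 for 5. With TMM factors 22.7% of all genes had separate intervals, 10.5% higher in replicate 1 and 12.1% higher in replicate 2, so the more frequent direction over all genes turned as well. Under both, Id3 and Tgfbr3 no longer had separate intervals, and Bmp7, Id1 and Acvr2b did, higher in replicate 2. With spike-in scaling 20 had separate intervals, 19 of them higher in replicate 1, beside 39.3% of all genes in that direction, and Grem1 was no longer among them. Id4 was higher in replicate 2 with separate intervals under every scaling tried.

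**Figure D2:**
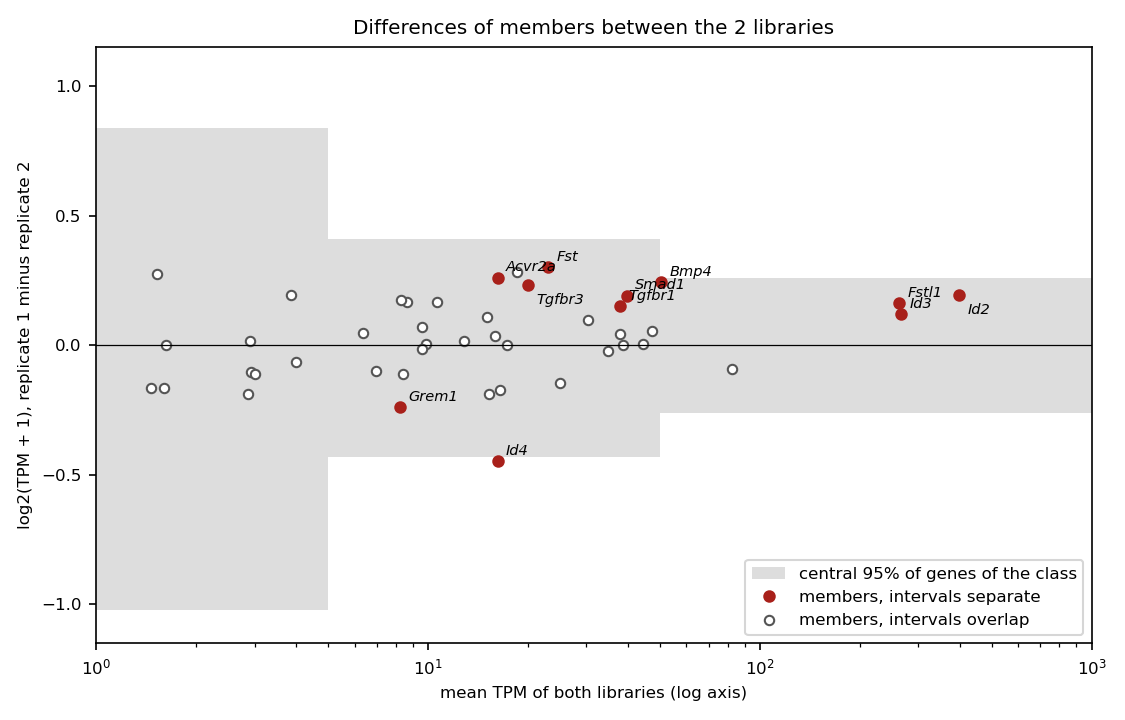
Difference of log2(TPM + 1), replicate 1 minus replicate 2, against mean TPM on a log axis for the 45 members with a mean of at least 1 TPM. Filled points had separate deposited intervals and a mean of at least 5 TPM. Grey bands hold the central 95% of all genes in classes from 1 to 5, 5 to 50 and 50 TPM upwards. Id4, at -0.45, is the only member below its band.

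The stretches before the RefSeq starts of Id4 and Grem1 are shown, as these were the members with separate intervals that were higher in replicate 2 on the deposited TPM scale. Each is the 250 bases before that start on GRCm38.p6, given in the direction of the gene, at chr13:48260866-48261115 on the plus strand for Id4 and chr2:113758649-113758898 on the minus strand for Grem1. Capitals mark GGCGCC, a GC-rich motif that Smads are known to bind, which reads the same on both strands.
Id4: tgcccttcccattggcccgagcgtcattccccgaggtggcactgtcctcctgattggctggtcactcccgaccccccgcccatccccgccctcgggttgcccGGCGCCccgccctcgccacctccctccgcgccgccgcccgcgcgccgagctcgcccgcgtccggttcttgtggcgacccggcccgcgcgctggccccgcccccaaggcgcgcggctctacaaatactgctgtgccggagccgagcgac
Grem1: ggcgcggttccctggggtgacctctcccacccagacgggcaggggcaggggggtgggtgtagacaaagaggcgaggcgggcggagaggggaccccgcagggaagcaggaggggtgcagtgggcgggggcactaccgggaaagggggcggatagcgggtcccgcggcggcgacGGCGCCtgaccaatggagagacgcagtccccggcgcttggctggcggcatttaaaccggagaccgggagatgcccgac
Each holds 1 match, starting 148 bases before the start in Id4 and 78 in Grem1, and their GC shares were 75.6% and 72.0%. The promoter table had entries for 34 members and none for the other 14, Id1 among them. The motif was present in 8 of the 34 (23.5%), namely Bmpr1a, Bmpr2, Chrd, Grem1, Id2, Id4, Smad9 and Tgfbr1, beside 9.54% of 27025 promoters of the same length. The GC shares of the 34 and of all promoters were not compared, and the motif is made of G and C alone. In 13 of the 34, the stretch holds bases that GENCODE M21 places in an exon of the gene. There an annotated transcript starts further upstream. Among these 13 are Id3 and, of those with the motif, Bmpr1a, Bmpr2 and Id2. The short Smad box GTCT, searched on both strands, occurred in 28 of the 34 (82.4%), beside 83.0% of all promoters. The palindrome GTCTAGAC occurred in 0 of the 34, beside 0.174%. A match is a description of these letters and not a bound site.

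The transcript tables give the share of each isoform in its gene. Of the 31 members with several transcripts, 24 had a mean of at least 5 TPM. In 22 of these the same transcript was highest in both libraries, and in 13 the highest transcript held at least 90% on the mean of the libraries. These include Smad4, with 98.8% in replicate 1 and 86.3% in replicate 2, so 12 members reached 90% in both. On the mean, those with the highest transcript under 60% were Tgfb2 and Acvr2b. In replicate 1 alone they were the same, and in replicate 2 alone they were Tgfb2 and Eng. By point estimate, Tgfb2 and Acvr2b were also those in which the highest transcript differed between libraries. Of the 102 transcripts of these members, 12 (11.8%) had separate intervals, beside 5.09% of 50708 transcripts of all genes chosen in the same way. For the counts of highest transcripts above, no share over all genes was computed.

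In Tgfbr2, the type II receptor for Tgfb, both annotated coding forms were present at steady shares. Tgfbr2-201 held 62.9% in replicate 1 and 64.2% in replicate 2, and Tgfbr2-202 held 37.1% and 35.8%. The forms differ by a single in-frame coding exon of 75 bases at chr9:116158271-116158345 on the minus strand (GRCm38), carried by Tgfbr2-202, and their deposited lengths of 4785 and 4710 bases differ by the same 75. The exon is shown in capitals, with 12 coding bases on each side in lower case, since the lengths of the quantified forms differ by just its size.
Tgfbr2-202: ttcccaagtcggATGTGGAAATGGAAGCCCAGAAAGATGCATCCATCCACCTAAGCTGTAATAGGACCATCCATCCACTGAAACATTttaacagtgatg
This form had 12.8 TPM in replicate 1 and 12.6 TPM in replicate 2, with overlapping intervals.

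In Acvr2b, an activin receptor, the order of the forms by point estimate differed between libraries. Acvr2b-201 held 55.9% in replicate 1 and 32.6% in replicate 2, and Acvr2b-202 held 44.1% and 67.4%. Acvr2b-202 had 6.79 TPM in replicate 1 and 11.8 TPM in replicate 2, and its intervals of 4.10 to 9.00 and 9.24 to 13.6 TPM did not overlap. Acvr2b-201 had 8.62 and 5.71 TPM with overlapping intervals. Acvr2b-202 carries 24 more in-frame coding bases at chr9:119428201-119428224 on the plus strand (GRCm38), shown in capitals between 12 coding bases on each side.
Acvr2b-202: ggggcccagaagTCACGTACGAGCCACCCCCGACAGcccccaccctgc
The deposited lengths of Acvr2b-202 and Acvr2b-201, 1696 and 1729 bases, differ by -33 and not by 24, so their ends differ too. The share therefore rests on more than this segment.

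In Tgfb2 the highest transcript was Tgfb2-205 in replicate 1, a retained-intron transcript with 40.6% there and 26.6% in replicate 2. In replicate 2 it was the coding Tgfb2-201, with 26.0% in replicate 1 and 32.2% in replicate 2. The coding transcripts summed to 48.1% and 54.4% of the gene, or 9.85 TPM in replicate 1 and 9.05 TPM in replicate 2. The intervals of all 6 Tgfb2 transcripts overlapped between libraries. Within each library the intervals of Tgfb2-205 and Tgfb2-201 overlapped too, so which of them was higher is not set. Tgfb2-206 held 22.1% and 22.2%, and it carries 84 in-frame coding bases that Tgfb2-201 lacks, at chr1:186690721-186690804 on the minus strand (GRCm38), shown in capitals between 12 coding bases on each side.
Tgfb2-206: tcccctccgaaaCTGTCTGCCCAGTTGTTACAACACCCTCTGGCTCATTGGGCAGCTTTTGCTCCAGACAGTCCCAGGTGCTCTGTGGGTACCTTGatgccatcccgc
Tgfb2-201 had 5.33 TPM in replicate 1 and 5.36 TPM in replicate 2, against 4.52 and 3.69 TPM for Tgfb2-206.

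Other members had several forms and the same highest transcript in both libraries. Bmp4-201 held 63.0% in replicate 1 and 65.7% in replicate 2, and Bmp4-202 held 24.3% and 22.4%, with the same coding sequence in both transcripts. The coding sequence was also shared by the main Acvrl1 transcripts, of which Acvrl1-205 held 61.9% and 67.6%. Acvrl1-203, with 14.5% and 9.53%, and Acvrl1-201, with 11.1% and 14.2%, changed places behind it by point estimate. Their TPM intervals overlapped within each library, so their order is not set. In Eng, Eng-201 held 63.4% and 58.7%, and Eng-202, whose coding part has 86 bases that Eng-201 lacks and lacks 122 that Eng-201 has, held 9.60% and 18.3% with overlapping intervals. Eng-205 held 17.9% and 17.7%, so by point estimate it ranked above Eng-202 in replicate 1 and below it in replicate 2. The TPM intervals of Eng-205 and Eng-202 overlapped within each library, so their order is not set. Fstl1-201, the coding form, held 73.7% and 71.2%, and the non-coding Fstl1-202 held 22.7% and 26.5%. Of the gene level of Fstl1, 205 TPM in replicate 1 and 177 TPM in replicate 2 therefore came from the coding form. Smad2-205 held 82.6% and 77.6% and Smad2-203 held 12.2% and 13.8%, and Smad2-203 lacks 211 coding bases of Smad2-205 while carrying 112 of its own. In Id3 the retained-intron transcript Id3-203 had 19.3 and 8.96 TPM with separate intervals, while the coding Id3-201 had 256 and 245 TPM with overlapping ones.

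**Figure D3:**
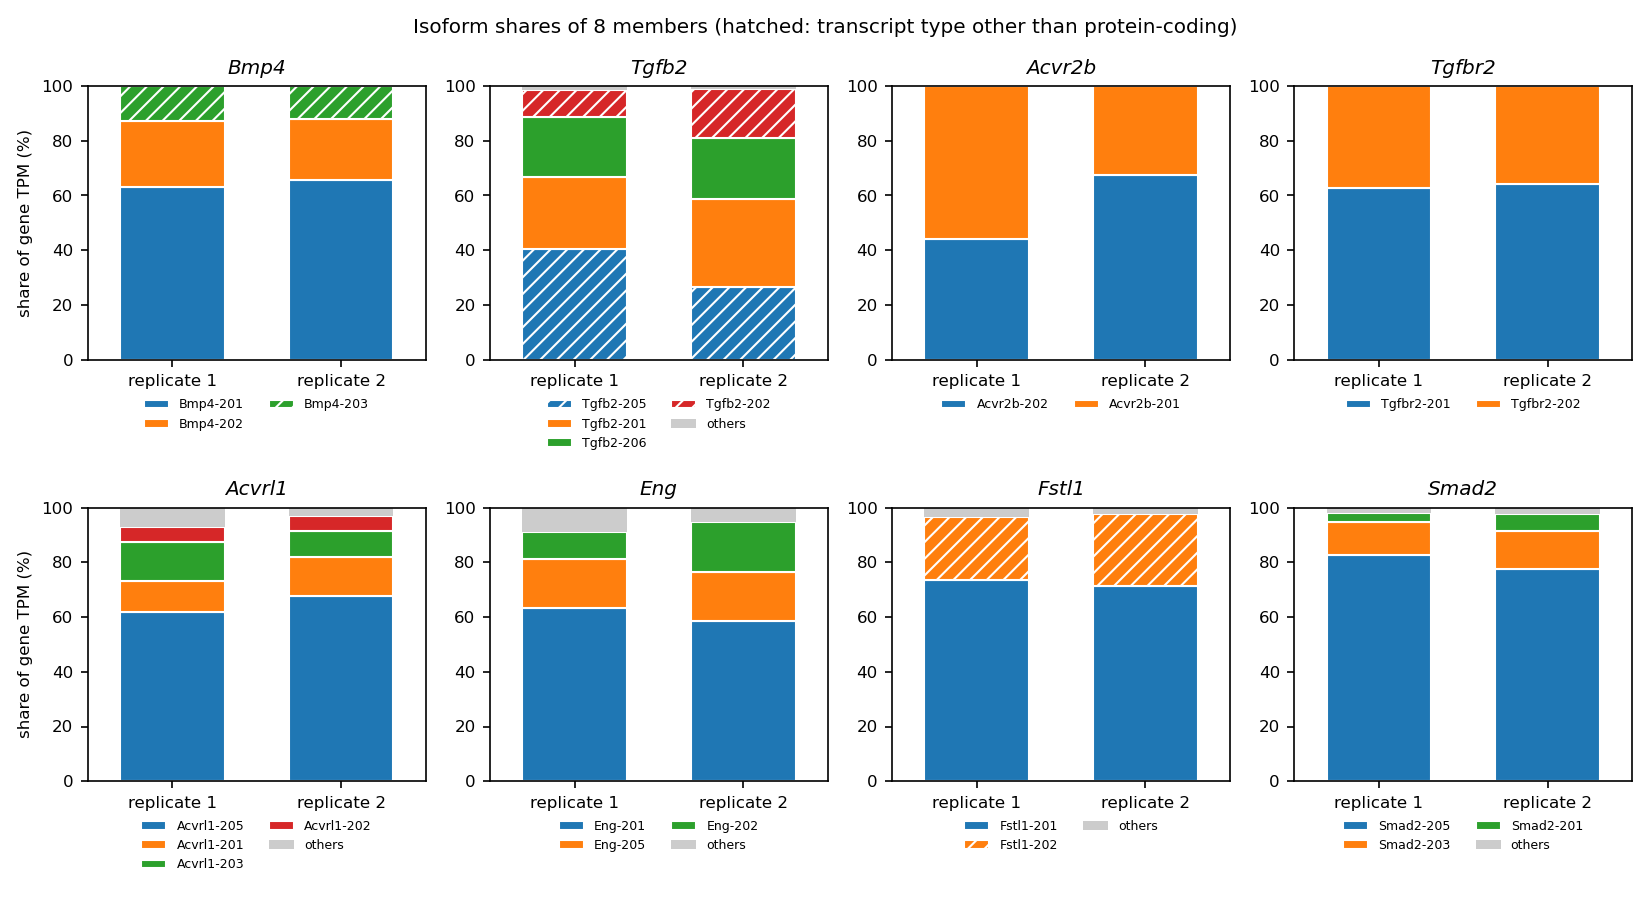
Share of each transcript in the TPM of its gene, in percent, for 8 members, with replicate 1 left of replicate 2. Transcripts under 5% in both libraries are summed in grey, and hatching marks transcripts annotated as other than protein-coding. Tgfbr2 has the same proportions in both libraries to within 1.29 percentage points, while the larger share is that of Acvr2b-201 in replicate 1 and of Acvr2b-202 in replicate 2. Within replicate 1 the TPM intervals of the Acvr2b forms overlap.

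Of 79 further pathway genes in the tables, 52 were detected, beside 61.3% of protein-coding genes. The counts of the separate lists below stand beside that same share. Only 3 of 16 other ligands were, and the highest were Gdf6, with 2.40 TPM in replicate 1 and 2.88 TPM in replicate 2, and Lefty1, an inhibitor of Nodal, with 1.34 and 1.61 TPM. Of 7 other receptors and coreceptors 2 were detected, the repulsive guidance molecules Rgmb, with 38.5 and 37.4 TPM, and Rgma, with 6.39 and 6.19 TPM, both Bmp coreceptors. Of 14 other extracellular Bmp modulators 9 were detected, led by Twsg1 (twisted gastrulation), with 87.2 and 79.9 TPM, and Nbl1, with 39.8 and 43.4 TPM. These levels exceeded those of Grem1, Nog and Chrd in both libraries.

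Genes that hold or activate latent Tgfb were mostly present, with 13 of 14 detected. Emilin1, a matrix protein that restrains processing of the Tgfb precursor, had 167 TPM in replicate 1 and 149 TPM in replicate 2, and Ltbp4, a latent Tgfb binding protein, had 76.7 and 85.5 TPM. Of 18 intracellular regulators 17 were detected. Fkbp1a, which binds the type I receptor and keeps it silent, had 568 and 547 TPM, and Tgif2, a Smad corepressor, had 50.03 and 48.1 TPM. Of 10 other known targets 8 were detected, and Tgfbi, a Tgfb-induced matrix protein, had 128 and 96.4 TPM while Cdkn1a, a cell cycle inhibitor, had 50.5 and 67.3 TPM. The intervals of both were separate, in opposite directions. None of the 79 genes, of which 40 had a mean of at least 5 TPM, met the rule for a difference between the libraries. Over all genes at that mean, 0.495% met it. Of those of the 79 with a mean of at least 1 TPM, 3 lay outside the central 95% of genes of a like level, beside 5.02% of genes. Tgfbi (0.41 in log2(TPM + 1)) and Cdkn1a (-0.41) were among them.

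**Figure D4:**
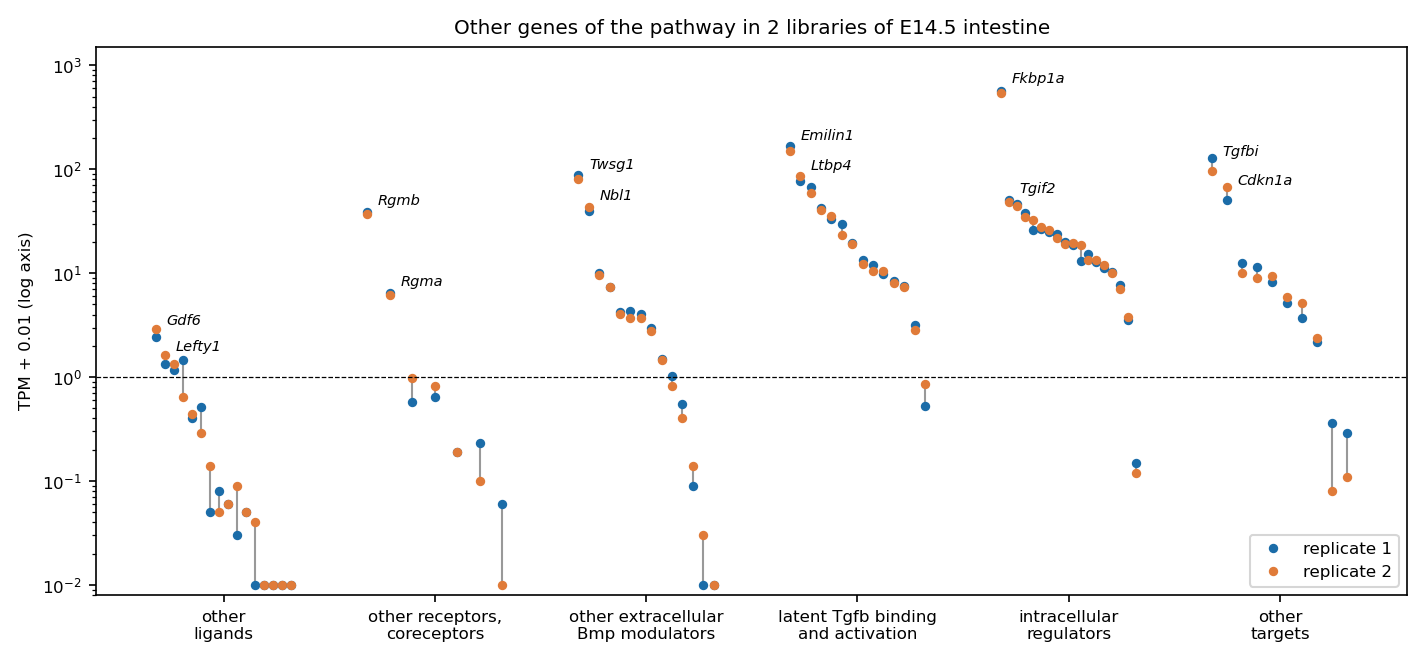
Level of the 79 other pathway genes in 6 lists, as TPM + 0.01 on a log axis, with the libraries of a gene joined by a line and genes ordered by mean within a list. The dashed line marks 1 TPM, and the highest genes of each list are named. Most other ligands lie below 1 TPM, while 17 of 18 intracellular regulators lie above it in both libraries.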

How the data were processed

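Total RNA over 200 nucleotides was extracted with the Ambion mirVana kit and sequenced from 10 ng with ERCC spike-ins, per the labels' protocols, in 2 libraries of 1 group. Per the notes deposited with the samples, the assembly was mm10 and the annotation GENCODE M4. What software quantified the reads, and whether it used strand, is not given in the sources used here. Deposited files hold the authors' expected counts per gene and transcript. TPM values were also deposited, over all features of a table, of which spike-ins took 9.77% and 10.4% of TPM in replicates 1 and 2. The authors also deposited, as a percent, how much each isoform contributed to its gene. Bounds of a 95% interval of TPM, taken here as scores, were deposited beside them. These intervals reflect estimation within a library, and the floor of 3 counts reflects counting error alone. Neither allows for reads from amplification, which do not stand for separate molecules.

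GENCODE M21 (GRCm38, the assembly that mm10 names) supplied symbols, transcript names and coordinates, and 42462 of 43346 gene identifiers had a symbol. Transcript ends can differ between the releases. Exon overlaps with other genes in that annotation were found for 15 members. Promoters came from RefSeq. The members, lists and rules were chosen with earlier results of these data known. All members are named, with the 2 highest genes of each other pathway list. Of 80 listed genes, 79 were in the tables. Members differing between replicates, spread, detection, medians and isoform shares were computed with pandas 2.3.3 in Python 3.11.15, and scaling factors with edgeR 4.0.16 and DESeq2 1.42.0 on rounded expected counts. The difference rule was tested on simulated data, from which no value is given here. Alternatives were other thresholds, a pseudocount of 0.1 in place of 1, posterior mean TPM, rescaling over nuclear protein-coding genes, TMM, DESeq2 and spike-in scaling, and leaving out a library. The count of separate intervals under other scalings was added after seeing the data.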

Additional observations from a re-analysis of the deposited data

How the results depend on the processing

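The number of members detected stayed at 45 with a threshold of 0.5 TPM, with posterior mean TPM, with rescaling over protein-coding genes and without either library, and was 46 at 10 counts and 35 at 5 TPM. No member differed between libraries under any alternative run, and 1 lay outside the central 95% with a pseudocount of 0.1. The median level was 14.5 TPM with posterior mean TPM, 18.2 TPM with rescaling over protein-coding genes, and 13.2 to 13.6 TPM with a library left out. The summed level was 2223 TPM with that rescaling and 1633 to 1761 TPM with a library left out. Members with separate intervals were 20 with spike-in scaling, beside 42.1% of all genes, and 12 under the other scalings, beside 22.6% to 23.8% of all genes, counts added after seeing the data. Members whose highest transcript held under 60% were 4 with posterior mean percent, against 2. TMM, DESeq2 and spike-in scaling moved replicate 2 by 0.05, 0.05 and -0.10 on the log2 scale. The highest member of each role was the same under every alternative except the Smads, where Smad2 led at 37.2 TPM without replicate 1. The cause was not tested. Differences, spread and separate intervals have no value with a library left out. With 2 libraries an SD is imprecise, and at under 10 counts in each library the intervals of Bmp8a and Inhbb overlapped. No paired analysis was possible because there is only 1 group.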
